A study of Mus musculus with 26 samples.

Results

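*Malat1* and *Neat1* encode long noncoding RNAs that stay in the cell nucleus. They are 2 of the 56738 gene symbols counted in primary keratinocytes of mice, whose RNA was sequenced in bulk, and both passed the filter on low counts, as did 16893 genes in all. The genes were selected on measured values, namely a lower level in KO than in WT libraries under basal conditions. That difference is therefore given as a description without a test, and tests on the genes themselves are limited to the comparison of libraries treated with cytokines, which come from the same mice. The fit behind these tests held all 4 groups, so the basal libraries enter its estimate of the spread.

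The keratinocytes, the epithelial cells of the epidermis, came from C57BL/6NJ mice 2 days of age, of which 5 were WT and 8 were homozygous for a CRISPR/Cas9 deletion in *Pla2g4d* (KO), bred after backcrossing to this strain. *Pla2g4d* codes for a phospholipase A2 of the cytosolic family, and the study asked how its loss alters gene expression. Cells were grown for 4 days at 0.06 mM CaCl2, a low calcium concentration that keeps keratinocytes in a proliferating state. Those of each mouse were then left untreated (basal) or treated for 24 h with the psoriasis-related cytokines IL17A and TNFα at 20 ng/ml each, which gave 4 groups and 26 libraries from 13 mice. A library combines the cells in a pair of wells of 1 mouse, and cells of different mice were not mixed. The sex, litter and sequencing batch were not given in the sources used here. The KO line was kept by homozygous breeding, so WT and KO pups would come from separate litters. Effects of litter can therefore not be told apart from those of genotype.

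*Malat1* RNA collects in nuclear speckles, bodies rich in splicing factors, whereas *Neat1* RNA is the scaffold of paraspeckles, bodies that hold RNA-binding proteins such as SFPQ and NONO. *Malat1* and the long form of *Neat1* are not polyadenylated in the usual way: RNase P cuts their 3′ end, and an A-rich tract folds with U-rich stretches into a triple helix that protects it. The short form of *Neat1* shares the 5′ part of the gene and carries a poly(A) tail. The libraries were made with a strand-specific mRNA kit from RNA of whole cells, so the place of the transcripts within the cell was not measured, and the counts per gene pool the forms of *Neat1*.

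Both genes lie side by side on the minus strand of chromosome 19 of the mouse genome GRCm39. *Malat1* spans chr19:5845717-5853602 (7886 bases) and *Neat1* spans chr19:5874736-5897132 (22397 bases), and 21133 bases lie between them. In each gene the longest of the annotated transcripts has 1 exon that covers the whole gene. The sequences below are shown because they hold the A-rich tracts described above. The capitals mark runs of at least 10 bases that the last 400 annotated bases of both genes share, which were found by comparing these ends on the transcribed strand. The *Malat1* stretch is chr19:5846010-5846093 and ends 293 bases before the annotated end of the gene, and the *Neat1* stretch is chr19:5874736-5874825 and ends with the gene.
Malat1: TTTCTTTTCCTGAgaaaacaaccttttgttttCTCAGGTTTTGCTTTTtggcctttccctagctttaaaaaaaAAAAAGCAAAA
Neat1: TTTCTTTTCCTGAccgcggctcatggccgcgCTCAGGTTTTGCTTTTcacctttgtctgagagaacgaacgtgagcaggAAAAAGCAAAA

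The 3 shared runs, TTTCTTTTCCTGA, CTCAGGTTTTGCTTTT and AAAAAGCAAAA, stood in the same order in both genes and made up 40 of 84 bases in *Malat1* and 40 of 90 bases in *Neat1*. The first was found in the last 400 bases of 0.00378% and the last in those of 0.163% of 449353 annotated transcripts of at least this length. The middle run was held by 4 of them, and these 4 held all 3 runs: 1 transcript of *Malat1* and 3 of *Neat1*. The longest run of A was 12 bases in the *Malat1* stretch and 5 bases in that of *Neat1*.

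The targeted gene *Pla2g4d* was at 1.21, 4.40, 3.14, 3.33 and 4.63 CPM, which are counts scaled to the size of the library, in WT replicates 1 to 5 under basal conditions. In KO basal libraries it ranged from 1.15 to 2.98 CPM with a median of 2.09 CPM. With cytokines it was at 28.6, 65.1, 47.0, 57.2 and 62.9 CPM in WT replicates 1 to 5, and at 29.2 to 59.2 CPM in KO libraries with a median of 36.2 CPM. The ranges of the genotypes overlapped in both conditions. The counts per gene include exons outside the deletion, so these values do not check the labels of the KO libraries.

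Total counts per library lay between 42072745 and 78102858. The lowest counts in any library were 71205 for *Malat1* and 15194 for *Neat1*, so that counting error was small beside the spread between mice. WT replicate 1 stood apart from the other WT mice: without it, 2061 genes in place of 479 differed between the genotypes with cytokines (edgeR quasi-likelihood test, adjusted p under 0.1). Without KO replicate 8 there were 1121. Without any of WT replicates 2 to 5, KO replicates 1 to 3, KO replicate 5 or KO replicate 6, there were 111 (WT replicate 3) to 264 (KO replicate 1). On that comparison, *Malat1* and *Neat1* are therefore given with and without WT replicate 1, and the counts of the gene lists where they differ without it. Of 14 named genes called in it, 0 lost the call without this mouse.

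Under basal conditions, *Malat1* was at 2066, 3580.1, 3118, 3438 and 4856 CPM in WT replicates 1 to 5. In the 8 KO libraries it ranged from 997 CPM (KO replicate 1) to 2670 CPM (KO replicate 6), with a median of 1972 CPM. WT replicate 1 lay within the KO range and the other 4 WT mice above it, and 4 of 8 KO libraries lay below all WT libraries. The mean was 3411 ± 1002 CPM (SD, n = 5) for WT and 1971 ± 508 CPM (SD, n = 8) for KO, or 0.343% and 0.197% of all counts.

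*Neat1* was at 521, 632, 703, 727 and 856 CPM in the same WT libraries. In KO basal libraries it ranged from 238 CPM (KO replicate 1) to 472 CPM (KO replicate 6), with a median of 364 CPM. All 8 KO libraries lay below all 5 WT libraries, a separation that belongs to the choice of the gene. The mean was 688 ± 124 CPM (SD, n = 5) for WT and 357 ± 69.1 CPM (SD, n = 8) for KO.

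The fitted log2 fold change of KO against WT was -0.79 (SE 0.18) for *Malat1* and -0.95 (SE 0.13) for *Neat1* in basal cells. Over all tested genes, 7.57% were higher and 6.06% were lower in KO in this comparison at an adjusted p under 0.1, and nothing is read from this for the selected genes. As in any bulk sample, fewer cells of a type and less RNA per cell cannot be told apart.

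**Figure D1:**
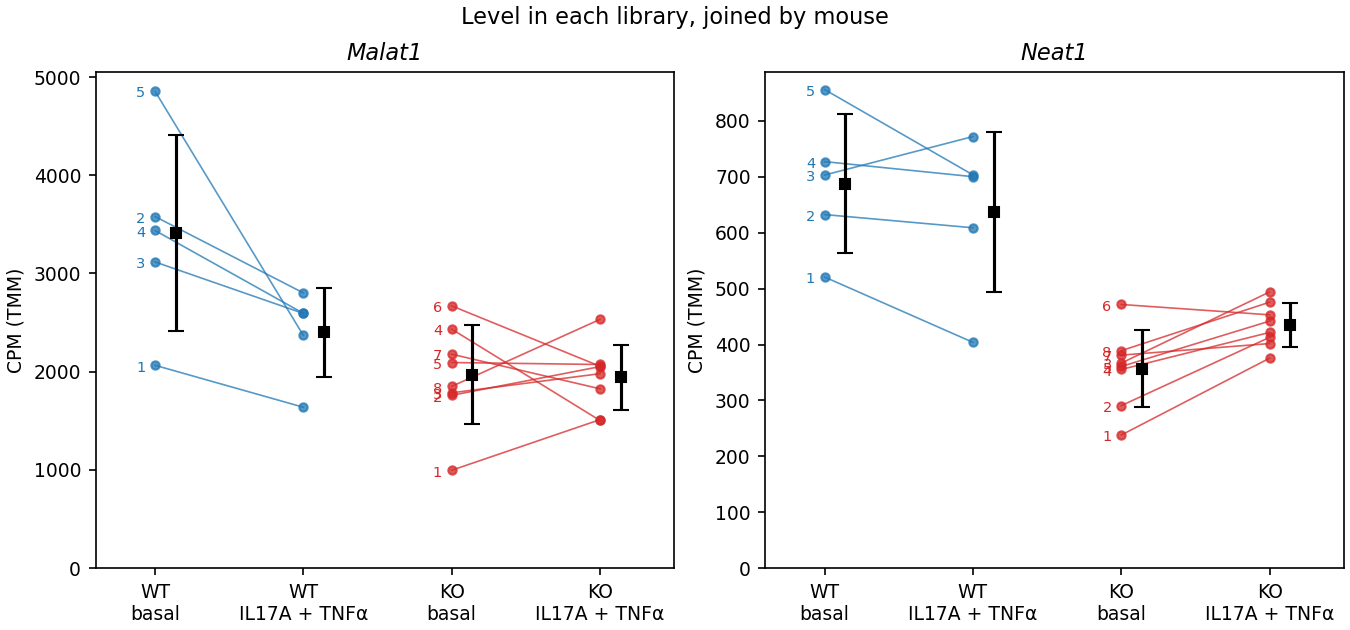
*Malat1* and *Neat1* in CPM (y axes) in every library of the 4 groups (x axis), with lines that join the basal and the cytokine library of a mouse and replicate numbers beside the basal points. Squares with bars are means ± SD over 5 WT or 8 KO mice, and basal *Neat1* lies between 238 and 472 CPM in KO and between 521 and 856 CPM in WT.

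With IL17A and TNFα, *Neat1* was lower in KO than in WT cells. These libraries did not enter the selection, but they come from the same 13 mice as the basal libraries that did, so differences between mice that persist in both conditions may carry part of the selection into this test. It was at 404, 609, 772, 700.2 and 703 CPM in WT replicates 1 to 5. In KO it ranged from 376 CPM (KO replicate 1) to 494 CPM (KO replicate 3), with a median of 432 CPM. WT replicate 1 lay within the KO range and the other 4 WT libraries above all 8 KO libraries. The mean was 638 ± 143 CPM (SD, n = 5) for WT and 435 ± 39.3 CPM (SD, n = 8) for KO, a log2 fold change of -0.55 (SE 0.13, adjusted p = 0.0342, edgeR quasi-likelihood test). In this comparison 1.22% of all genes were higher and 1.62% were lower in KO. The fold of 0.682 is a smaller change than the 1.5 times that the methods of the study also ask for, so with that limit *Neat1* would not be called. The call was lost without WT replicate 3 (log2 fold change -0.48, adjusted p = 0.156) and without WT replicate 4 (-0.52, adjusted p = 0.129), and without WT replicate 1 the log2 fold change was -0.67 (adjusted p = 0.000878).

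*Malat1* with cytokines was at 1638, 2802, 2593, 2595 and 2370.1 CPM in WT replicates 1 to 5. In KO it ranged from 1504 CPM (KO replicate 4) to 2533 CPM (KO replicate 8), with a median of 2016 CPM. The groups overlapped, with 3 of 5 WT libraries above all KO libraries and 2 of 8 KO libraries below all WT libraries. The mean was 2399.7 ± 452 CPM (SD, n = 5) for WT and 1942 ± 335 CPM (SD, n = 8) for KO. The log2 fold change of -0.31 (SE 0.18, normal 95% interval -0.65 to 0.04) did not pass the test (adjusted p = 0.430, edgeR), nor did it without WT replicate 1 (-0.41, adjusted p = 0.126).

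The response of each mouse to the cytokines was described from its basal and its treated library, without a test, since the basal libraries entered the selection. *Malat1* was lower with cytokines in 5 of 5 WT mice, by log2 ratios of -0.33, -0.35, -0.27, -0.41 and -1.03 in replicates 1 to 5. In KO mice the log2 ratio ranged from -0.69 to 0.60 with a median of 0.07, and 4 of 8 were above 0. The fitted log2 fold change was -0.51 (SE 0.20) in WT and -0.02 (SE 0.16) in KO.

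*Neat1* gave log2 ratios of -0.37, -0.05, 0.13, -0.05 and -0.28 in WT replicates 1 to 5, with 4 of 5 below 0. In KO mice the ratio ranged from -0.06 to 0.66 with a median of 0.29, and was above 0 in 7 of 8. The fitted log2 fold change was -0.11 (SE 0.15) in WT and 0.29 (SE 0.12) in KO. The difference between the responses, KO minus WT, was 0.49 (SE 0.25) for *Malat1* and 0.39 (SE 0.19) for *Neat1*, and it was not tested for either gene. Without WT replicate 5 the difference was 0.32 for *Malat1*. The fitted response of *Neat1* in WT was -0.18 without WT replicate 3 and -0.06 without WT replicate 5, and that of *Malat1* in KO lay between -0.10 (without KO replicate 8) and 0.07 (without KO replicate 4). The order of the group means was WT basal, WT with cytokines, KO basal and KO with cytokines for *Malat1*, and WT with cytokines, KO basal and KO with cytokines followed each other at distances below their SDs. For *Neat1* the order was WT basal, WT with cytokines, KO with cytokines and KO basal, and WT basal and WT with cytokines differed by less than their SDs.

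**Figure D2:**
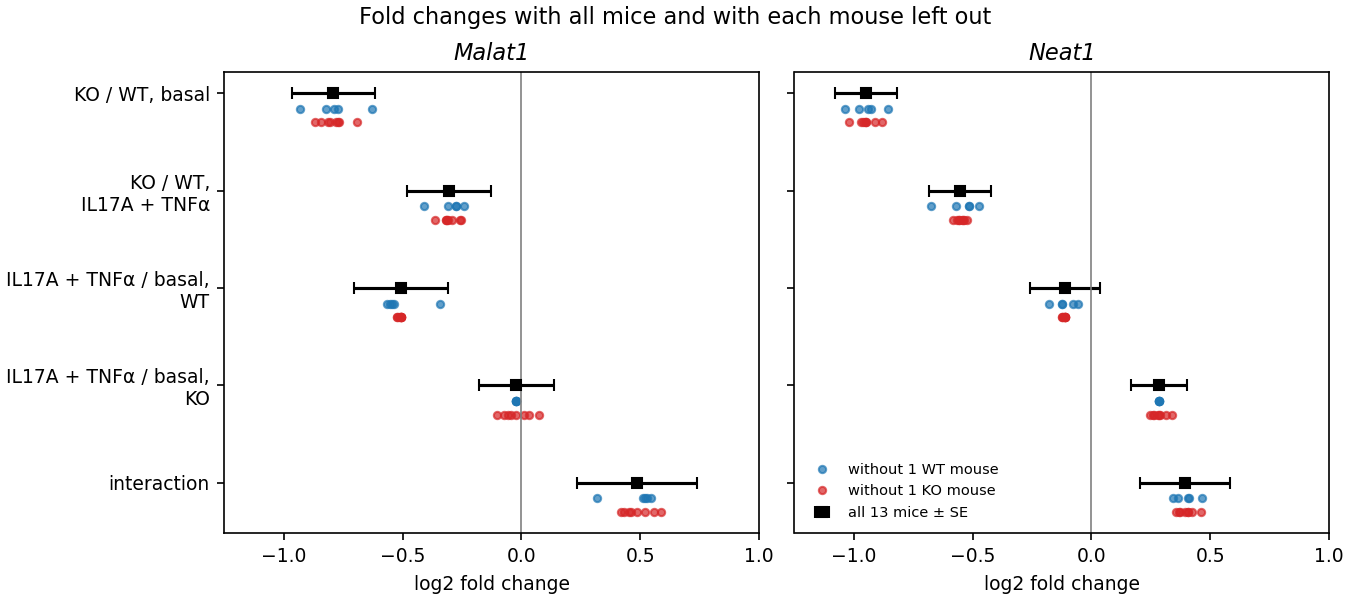
Fitted log2 fold changes (x axes) of *Malat1* and *Neat1* for each comparison (y axis), with squares and bars for all 13 mice ± SE and circles for the value with 1 WT or 1 KO mouse left out. The circles for *Neat1* in KO against WT with cytokines lie between -0.67 and -0.48.

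In CPM per kb of annotated exons, *Malat1* was higher than *Neat1* in all groups. In WT basal cells it was at 433 ± 127 CPM per kb (SD, n = 5), against 30.7 ± 5.52 CPM per kb for *Neat1*, and in KO basal cells at 249.9 ± 64.4 against 15.9 ± 3.08 CPM per kb (SD, n = 8). With cytokines the levels were 304 ± 57.3 and 28.5 ± 6.38 CPM per kb in WT, and 246 ± 42.4 and 19.4 ± 1.76 CPM per kb in KO. By the mean of this measure over all 26 libraries, groups pooled, *Malat1* ranked 101st and *Neat1* 1524th among 52624 symbols with an annotated length. A level per kb of *Neat1* is an average over its whole length, of which the short form covers only the 5′ part. How well the mRNA libraries captured each RNA was not measured, so these values compare reads and not molecules.

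The ratio of *Malat1* to *Neat1* counts within a library does not depend on how libraries are scaled to each other. It was 4.89 ± 0.757 (SD, n = 5) in WT basal, 5.49 ± 0.842 (SD, n = 8) in KO basal, 3.82 ± 0.524 in WT with cytokines and 4.46 ± 0.569 in KO with cytokines. The ranges of the genotypes overlapped in both conditions.

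Relations within the 8 KO mice were computed for 4 pairs. Of them, 3 use KO basal libraries, whose level entered the selection, and these are given as descriptions without p. The log2 levels of *Malat1* and *Neat1* across KO libraries with cytokines gave Pearson's r = 0.687 (two-sided exact permutation p = 0.0585, not adjusted) and Spearman's rho = 0.571 (exact p = 0.151), and r was 0.513 without KO replicates 1 and 4, the mice farthest from the median of *Malat1*. No relation between the genes is read from this.

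Across KO basal libraries r between the 2 genes was 0.875 and rho 0.643, and r was 0.323 without KO replicates 1 and 6. Between the basal and the treated library of a KO mouse, *Malat1* gave r = 0.282 and rho = 0.0476, and r was -0.748 without KO replicates 1 and 6. For *Neat1* these were r = 0.671 and rho = 0.619, and r was 0.402 without the same mice. With 5 mice, no correlation is given for WT.

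**Figure D3:**
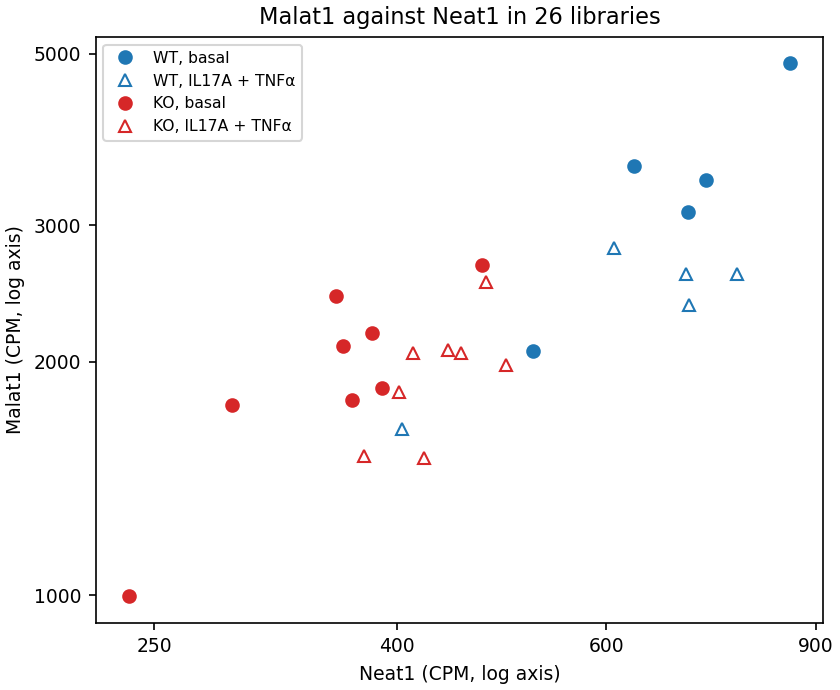
*Malat1* against *Neat1* in CPM on log axes, with 1 point per library, circles for basal and triangles for cytokine-treated libraries, and colours for the genotype. KO replicate 1 (238 CPM *Neat1*, 997 CPM *Malat1*) lies at the lower left and WT replicate 5 (856 and 4856 CPM) at the upper right, both under basal conditions.

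Genes with levels most like those of *Malat1* over the 26 libraries, after the mean of each group was subtracted, were *Gm37352* (r = 0.913), *Ces2f* (0.912), *Mdn1* (0.910), *Nfat5* (0.907) and *Rimoc1* (0.879). *Gm37352* is an uncharacterized locus, *Mdn1* codes for a ribosome assembly factor and *Nfat5* for a transcription factor of the response to osmotic stress. *Neat1* ranked 19th of 11855 genes with r = 0.827. For *Neat1* the leading genes were *Hyal1* (0.895), the nuclear long noncoding RNA *Firre* (0.882), *Ogt* (0.860), which codes for the O-GlcNAc transferase, the noncoding *Snhg17* (0.841) and *Ces2f* (0.835), and *Malat1* ranked 10th. By ranks (Spearman's rho 0.635 between the 2 genes), *Neat1* was only 353rd for *Malat1* and *Malat1* 119th for *Neat1*, while 4 of the 5 leading genes were again among the first 5 for *Malat1* and 3 of 5 for *Neat1*.

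Without subtraction, when differences between groups count too, the leading genes for *Neat1* were *Clk1* (r = 0.925), *Ccnl2* (0.921), *Leng8* (0.921), *Ogt* (0.915) and *Zc3h7a* (0.914). For *Malat1* they were *Ogt* (0.895), *Suco* (0.895), *Srsf11* (0.895), *Zcchc7* (0.889) and *Rimoc1* (0.888). These correlations describe likeness and share the libraries and their scaling, so no p is given.

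A list fixed before these correlations were computed, though with earlier results of the data known, holds 25 protein-coding genes known for transcripts that keep introns and stay in the nucleus, many of which code for splicing regulators. It includes *Clk1*, *Ccnl2* and *Ogt*, whose likeness to *Neat1* without subtraction contains the same difference between KO and WT basal libraries, so the 2 observations are not independent. In KO basal cells 20 of the 25 were lower and 0 were higher than in WT by edgeR, beside 6.06% lower and 7.57% higher over all genes. The 0 higher held at an unadjusted p under 0.05, with DESeq2 and with limma. The median log2 fold change of the list was -0.26, against 0.00 over all genes. Counts per gene do not tell transcripts that keep introns from spliced ones, so intron retention was not measured.

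*Clk1*, a kinase that phosphorylates splicing factors, fell from 152 ± 17.3 CPM (SD, n = 5) in WT to 95.3 ± 18.0 CPM (SD, n = 8) in KO basal cells (log2 fold change -0.68, SE 0.10, adjusted p = 4.66e-05, edgeR). *Rsrp1*, which codes for an arginine- and serine-rich protein, fell from 174 ± 7.62 to 114 ± 13.9 CPM (-0.61, SE 0.08, adjusted p = 3.07e-06). In both genes all 8 KO libraries lay below all 5 WT libraries. The most abundant gene of the list, the RNA helicase gene *Ddx5*, did not pass (789.6 ± 26.1 and 754 ± 24.9 CPM, log2 fold change -0.07, adjusted p = 0.252).

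With cytokines 3 of the 25 genes were lower in KO, beside 1.62% over all genes, and the median log2 fold change was -0.14, against -0.01 over all genes. All 25 fold changes were below 0 in the edgeR fit. *Clk1* had 140 ± 16.5 CPM in WT, against 105 ± 9.67 CPM for KO (-0.41, SE 0.10, adjusted p = 0.0437), and *Ccnl2*, a cyclin gene linked to splicing, 161 ± 19.4 and 127 ± 9.36 CPM (-0.35, SE 0.08, adjusted p = 0.0406), and the other was *Rsrp1* (-0.33, SE 0.08, adjusted p = 0.0322). The number lower was 10 without WT replicate 1 and 0 without WT replicate 3, WT replicate 4 or WT replicate 5. The call of *Clk1* was also lost without WT replicate 2, and adjusted p reached 0.150 for *Clk1* and 0.170 for *Ccnl2*. Without WT replicate 1 it was 0.00500 for *Clk1* and 0.00824 for *Ccnl2*.

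With cytokines against basal, 2 genes of this list rose and 9 fell in WT cells, or 36% lower, beside 18.8% and 18% of all genes, with the RNA helicase gene *Ddx17* (log2 fold change 0.19, SE 0.04, adjusted p = 0.00117) and the p53 regulator *Mdm4* (-0.27, SE 0.07, adjusted p = 0.00612) among them. The number that rose in WT was 1 or 2 with each mouse left out, and the number that fell was 7 without WT replicate 2 or WT replicate 5 and 13 without KO replicate 6 or KO replicate 8, and up to 15 with other settings. In KO cells 4 rose (8 in the fit with the mouse as a block) and 1 fell (3 without KO replicate 1), beside 17.7% and 18.1% of all genes. There *Rsrp1* rose from 114 ± 13.9 to 147 ± 15.4 CPM (0.36, SE 0.07, adjusted p = 9.25e-05) and *Clk4*, a kinase gene related to *Clk1*, from 23.5 ± 2.21 to 27.9 ± 1.80 CPM (0.25, SE 0.06, adjusted p = 0.00131). The treated and the basal comparisons share libraries, and whether the responses of the list differ by genotype was not tested.

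Of 30 genes for nuclear speckle scaffolds and splicing factors, the bodies in which *Malat1* collects, 11 were lower in KO basal cells and 0 were higher by edgeR (1 at an unadjusted p under 0.05, 0 with DESeq2 and 1 with limma), beside 6.06% lower and 7.57% higher over all genes. The number higher was 1 when WT replicate 1 or WT replicate 5 was left out, and likewise for KO replicate 4 and KO replicate 7. The number lower was 6 without WT replicate 5 and 14 without KO replicate 4. *Prpf4b*, a splicing kinase, fell from 132 ± 5.98 CPM (SD, n = 5) to 107 ± 9.78 CPM (SD, n = 8; log2 fold change -0.31, SE 0.06, adjusted p = 0.000448), and *Snrnp70*, a component of the U1 particle, from 270 ± 16.3 to 225 ± 21.0 CPM (-0.27, SE 0.06, adjusted p = 0.00798). *Srrm2*, the most abundant gene of this list, was at 534 ± 31.1 and 499.7 ± 35.1 CPM and did not pass (adjusted p = 0.223), although it did without KO replicate 4 (adjusted p = 0.0512). The median over the list was -0.07. With cytokines 0 of 30 differed between genotypes by edgeR, DESeq2 and limma, 1 was lower at an unadjusted p under 0.05 and 1 by edgeR without WT replicate 1, and the median was -0.02. Over all genes 1.22% were higher and 1.62% lower there. Treatment lowered 11 of them in WT cells, 4 without WT replicate 5, beside 18% of all genes. In KO cells 4 rose, 1 without KO replicate 5 or KO replicate 6, and 3 fell, beside 17.7% and 18.1% of all genes.

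Of 36 genes for paraspeckle proteins, 1 was lower in KO basal cells, *Rbmx* (-0.31, SE 0.10, adjusted p = 0.0461). Its call was lost without WT replicate 3 (adjusted p = 0.122), and 3 genes were lower without KO replicate 3. By edgeR 0 were higher, and 2 were at an unadjusted p under 0.05, with DESeq2, with limma and without WT replicate 1, beside 6.06% lower and 7.57% higher over all genes. *Sfpq* had 268 ± 8.55 CPM in WT basal and 268 ± 14 CPM in KO basal cells, *Nono* 311 ± 12.7 and 313 ± 16.1 CPM and *Pspc1* 22.3 ± 1.28 and 23.4 ± 2.63 CPM. None of these 3 genes, which code for core proteins of the bodies, passed in either comparison of the genotypes (adjusted p from 0.377 to 0.988), although *Pspc1* with cytokines passed without WT replicate 1 (adjusted p = 0.0215). With cytokines *Rbm3*, a cold-inducible RNA-binding protein gene, was lower in KO (213 ± 8.69 and 183 ± 18.0 CPM, log2 fold change -0.22, SE 0.05, adjusted p = 0.0408), as was the related *Cirbp* (-0.37, SE 0.11, adjusted p = 0.0770). Both calls were lost without WT replicate 3 or WT replicate 4, with adjusted p up to 0.115 for *Rbm3* (0.0393 without WT replicate 1), and that of *Cirbp* was lost without any 1 of 10 mice (adjusted p up to 0.255). *Hnrnpk*, the most abundant gene of the list, had 736 ± 19.8 CPM in WT basal and 778 ± 21.5 CPM in KO basal cells (adjusted p = 0.117). It passed in 5 of 24 alternatives, among them DESeq2, limma and the fit with the mouse as a block (lowest adjusted p of the 24 alternatives 0.0619). With cytokines 0 of the 36 were higher in KO by edgeR and limma, 1 with DESeq2, 2 at an unadjusted p under 0.05, and 4 by edgeR without WT replicate 1. *Rbm3* and *Cirbp* were the 2 lower (5.56%), beside 1.22% higher and 1.62% lower over all genes. In response to cytokines, 4 rose and 11 fell in WT, beside 18.8% and 18% of all genes, and 4 rose and 10 fell in KO, beside 17.7% and 18.1%. In WT 2 rose without WT replicate 1, WT replicate 2 or WT replicate 4, and 7 fell without WT replicate 2.

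Among 30 genes for the enzymes that cut the 3′ ends of both RNAs, the triple helix binder METTL16 and nuclear RNA decay, 2 were lower in KO basal cells (4 without KO replicate 8), beside 6.06% over all genes. These were *Zfc3h1*, which links nuclear polyadenylated RNA to the exosome (106 ± 8.52 and 88.9 ± 9.34 CPM, -0.26, SE 0.07, adjusted p = 0.0113), and the exosome subunit gene *Exosc7* (34.8 ± 2.11 and 29.8 ± 2.24 CPM, -0.23, SE 0.06, adjusted p = 0.0148). *Mettl16* (69.7 ± 4.96 and 65.5 ± 2.13 CPM, adjusted p = 0.231) and *Elac2*, the RNase Z gene (44.9 ± 1.81 and 41.4 ± 3.22 CPM, adjusted p = 0.183), did not pass, although *Elac2* did without KO replicate 8 (adjusted p = 0.0509). With cytokines the RNase P subunit gene *Rpp30* was higher in KO (0.42, SE 0.12, adjusted p = 0.0900), a call lost in 12 of 24 alternatives (adjusted p up to 0.266). It was the 1 gene of the list higher with cytokines, beside 1.22% over all genes, and 7 were higher without WT replicate 1 (*Rpp30* adjusted p = 0.00231).

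The cytokines lowered *Elac2* and *Mettl16* in both genotypes. *Elac2* fell to 30.3 ± 0.814 CPM in WT (log2 fold change -0.57, SE 0.06, adjusted p = 1.3e-08) and to 31.8 ± 2.14 CPM in KO (-0.38, SE 0.05, adjusted p = 2.65e-07). *Mettl16* fell by 0.41 on the log2 scale in WT (SE 0.05, adjusted p = 1.26e-07) and by 0.23 in KO (SE 0.04, adjusted p = 3.97e-05). Of the 30 genes, 12 fell and 0 rose in WT by edgeR (0 at an unadjusted p under 0.05 and with DESeq2, 1 with limma and 1 without WT replicate 1). In KO 8 fell and 6 rose, of which 1 rose without KO replicate 3 or KO replicate 6. Over all genes 18% were lower and 18.8% higher in WT, and 18.1% lower and 17.7% higher in KO.

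Of 42 other named long noncoding RNA genes, 41 were in the table and 38 were tested. In KO basal cells 9 were lower and 1 was higher, beside 6.06% and 7.57% of all genes, with a median of -0.26. The number lower was 3 without WT replicate 5 and 16 without WT replicate 1. The higher gene was *Peg13* (0.41, SE 0.14, adjusted p = 0.0714), whose call was lost in 10 of 24 alternatives (adjusted p up to 0.207). *Firre*, which codes for a nuclear RNA of the X chromosome, fell from 96.6 ± 10.2 to 61.0 ± 9.77 CPM (-0.66, SE 0.10, adjusted p = 4.9e-05), with all 8 KO libraries below all 5 WT libraries. *Mir17hg*, the host gene of a microRNA cluster, was lower as well (12.7 ± 1.52 and 8.68 ± 2.49 CPM, -0.55, SE 0.16, adjusted p = 0.0264). *Norad*, the most abundant of the list, was at 172 ± 11.3 and 169.8 ± 8.31 CPM and did not pass (adjusted p = 0.846). Over all 1741 tested genes annotated as long noncoding RNA, 35 were higher and 60 lower in KO basal cells (2.01% and 3.45%), with a median of 0.02. With cytokines 6 were higher and 10 lower (0.345% and 0.574%), beside 1.22% and 1.62% of all genes, with a median of -0.06.

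With cytokines 2 of the 38 (5.26%) were lower in KO beside 1.62% of all genes, 0 without WT replicate 3 and 4 without WT replicate 1, with a median of -0.11. *Firre* had 78.3 ± 10.5 CPM in WT, against 57.4 ± 6.37 CPM for KO (-0.45, SE 0.10, adjusted p = 0.0254, 0.124 without WT replicate 3 and 0.00319 without WT replicate 1). *Snhg17*, a snoRNA host gene, was at 36.6 ± 6.10 and 30.0 ± 2.01 CPM (-0.29, SE 0.09, adjusted p = 0.0950), a call lost in 16 of 24 alternatives (adjusted p up to 0.274). Treatment lowered 16 and raised 1 of the 38 in WT (0 without WT replicate 4, 2 without WT replicate 5 or KO replicate 1). In KO it lowered 11 (7 without KO replicate 7) and raised 2 (0 if KO replicate 1, KO replicate 2 or KO replicate 3 is left out). Over all genes 18% were lower and 18.8% higher in WT, and 18.1% lower and 17.7% higher in KO. The imprinted *H19* fell from 171 ± 34.5 to 57.4 ± 11.3 CPM in WT (-1.58, SE 0.19, adjusted p = 1.29e-07) and from 131 ± 37.5 to 58.0 ± 12.7 CPM in KO (-1.18, SE 0.15, adjusted p = 2.78e-07).

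**Figure D4:**
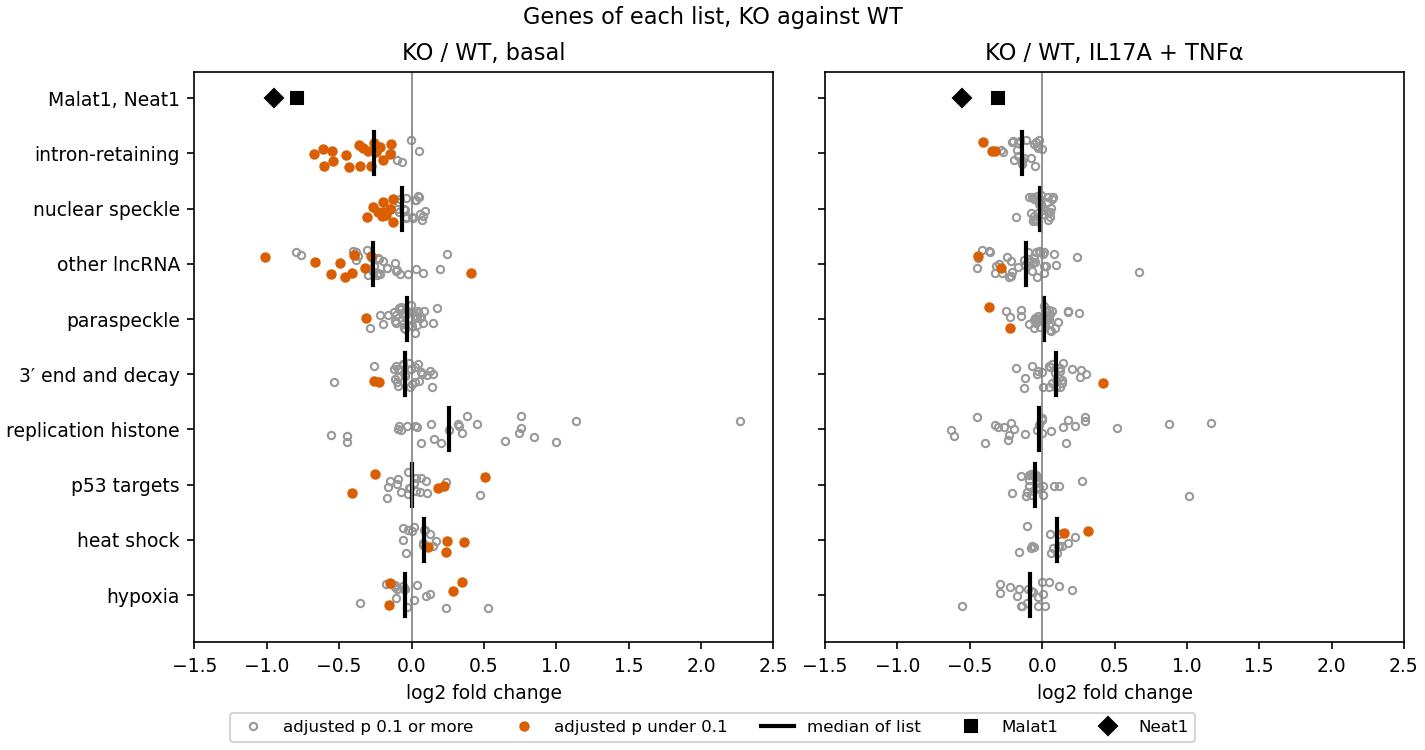
Log2 fold change of KO against WT (x axes) for each tested gene of the lists (y axis), under basal conditions and with cytokines, with filled circles for genes with an adjusted p under 0.1 and black lines for the median of each list. *Malat1* and *Neat1* are drawn apart and carry no test under basal conditions, where 20 of 25 genes of the intron-retaining list are filled.

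RNAs that lack a poly(A) tail for other reasons were counted too. Of 64 replication-dependent histone genes, whose mRNAs end in a stem-loop, 27 were tested and 0 differed between genotypes in either condition by edgeR, DESeq2 and limma. At an unadjusted p under 0.05, 1 was higher under basal conditions and 1 lower with cytokines, with medians of 0.26 basal and -0.02 with cytokines. Over all genes 7.57% were higher and 6.06% lower under basal conditions, and 1.22% and 1.62% with cytokines. With WT replicate 1, KO replicate 1 or KO replicate 4 left out, 1 was higher under basal conditions by edgeR. With WT replicate 1 or KO replicate 8 left out, 1 was lower with cytokines. Their summed level was 172 ± 14.8 CPM in WT basal and 190 ± 33.0 CPM in KO basal libraries. Most of it was *H1f2*, with means of 118 and 131 CPM. The group mean was under 1 CPM for 60 of the 64 genes in WT basal and for 58 in KO basal libraries. A list of structured RNAs, which also named the protein-coding gene *Lars2*, had 9 genes in the table. Of these 9, 6 had a mean under 1 CPM in each group, with *Rmrp*, *Rpph1*, *Terc* and *Rprl3* at 0 in all libraries. The summed level of the 9 genes was 16981 ± 2705 CPM in WT basal and 19714 ± 1988 CPM in KO basal libraries. Nearly all of it was the ribosomal RNA locus *Rn18s-rs5*. Genes of these families exist in near-identical copies, so the split of reads among them is uncertain.

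Pathways known to induce *Neat1* or *Malat1* were counted as well, beside 7.57% of all genes higher and 6.06% lower under basal conditions and 1.22% higher and 1.62% lower with cytokines. Of 24 p53 targets, 3 were higher and 2 lower in KO basal cells, among them *Plk2* (419 ± 67.8 and 594 ± 43.0 CPM, 0.51, SE 0.10, adjusted p = 0.0016) and *Trp53inp1* (484 ± 65.5 and 363 ± 35.5 CPM, -0.41, SE 0.07, adjusted p = 0.000111), and 0 differed with cytokines by edgeR (2 higher and 2 lower at an unadjusted p under 0.05, 1 higher with DESeq2 and with limma). Without WT replicate 1 or KO replicate 8, 2 were higher and 1 lower with cytokines. Under basal conditions 1 was lower without WT replicate 2 and 4 without WT replicate 1. The others called were *Btg2* and *Pmaip1*, higher, and *Perp*, lower, the last of which was lost without WT replicate 2 (adjusted p = 0.134). The number higher was 2 without WT replicate 3, WT replicate 4 or KO replicate 6, when *Pmaip1* lost its call. It was 4 without WT replicate 5. Of 17 heat shock genes 4 were higher under basal conditions (*Hspa4l*, *Hspb1*, *Hsp90aa1* and *Dnajb1*) and 0 lower by edgeR, DESeq2, limma or at an unadjusted p under 0.05, with *Hspa4l* at 103 ± 11.5 and 133 ± 13.1 CPM (0.36, SE 0.08, adjusted p = 0.00285), and with cytokines 2 were higher (*Hsph1* and *Hspd1*), 7 without WT replicate 1 and 0 without WT replicate 3. The call of *Hspd1* (adjusted p = 0.0860) was lost in 13 of 24 alternatives (adjusted p up to 0.249), that of *Hsph1* without WT replicate 3 (adjusted p = 0.123) and that of *Hsp90aa1* without WT replicate 4 (adjusted p = 0.107). Under basal conditions 3 heat shock genes were higher without WT replicate 4. Without WT replicate 5 there were also 3, since *Hspb1* or *Dnajb1* lost its call, and without WT replicate 1 there were 6. Of 20 hypoxia genes 2 were higher (*Adm* and *P4ha2*) and 2 lower (*Pdk1* and *Slc2a1*) under basal conditions, with *Adm* higher (75.3 ± 10.6 and 95.9 ± 5.95 CPM, 0.35, SE 0.09, adjusted p = 0.0146), and 0 differed with cytokines by edgeR, DESeq2 or limma (1 higher and 2 lower at an unadjusted p under 0.05). Of the genes here, *Btg2*, *Pmaip1*, *Hspb1*, *Hsp90aa1*, *Dnajb1*, *Hspd1*, *P4ha2*, *Pdk1* and *Slc2a1* were chosen after their values were seen. The 2 lower hypoxia genes were 0 without WT replicate 3, KO replicate 3 or KO replicate 6. Each of these 2 calls was lost in 5 of 24 alternatives (adjusted p up to 0.106 for *Pdk1* and 0.146 for *Slc2a1*). The number lower was 3 when WT replicate 1 or WT replicate 4 was left out, and likewise for KO replicate 4 and KO replicate 8. The 2 higher were 1 without WT replicate 2, WT replicate 4 or WT replicate 5, when *P4ha2* lost its call (adjusted p up to 0.183), and 3 without WT replicate 1. With cytokines 1 was lower without WT replicate 1 or KO replicate 8.

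Around the 2 genes, 37 tested genes lay within 250 kb. In KO basal cells 2 of them were higher, *Rela* (0.14, SE 0.04, adjusted p = 0.0172) and *Ehbp1l1* (0.40, SE 0.07, adjusted p = 0.0004), and 2 were lower, *Ltbp3* (-0.26, SE 0.08, adjusted p = 0.0409) and *Ovol1* (-0.33, SE 0.11, adjusted p = 0.0574), beside 7.57% higher and 6.06% lower over all genes. *Rela* codes for a subunit of NF-κB and *Ovol1* for a transcription factor of the epidermis. The calls of *Ltbp3* and *Ovol1* were lost in 2 and 6 of 24 alternatives, with adjusted p up to 0.150 and 0.240. The median of the 37 genes was -0.00, and with cytokines 0 of them differed between genotypes by edgeR and limma, while 1 was lower with DESeq2 and 4 at an unadjusted p under 0.05, beside 1.22% higher and 1.62% lower over all genes. Without WT replicate 1, 3 were higher and 2 lower with cytokines, and 5 were higher in basal cells.

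*Frmd8*, upstream of *Neat1*, had a log2 fold change of 0.05 (SE 0.06) in KO basal cells and did not pass (adjusted p = 0.655). *Gm37376*, annotated within *Malat1* on the opposite strand, had a value of -0.64 (SE 0.36, adjusted p = 0.312), at a mean of 39.1 CPM. Whether the counting used the strand is not given in the sources used here, so its reads and those of *Malat1* may not be told apart. The antisense *Frmd8os*, which overlaps the start of *Neat1*, was at 0.761 CPM on average.

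**Figure D5:**
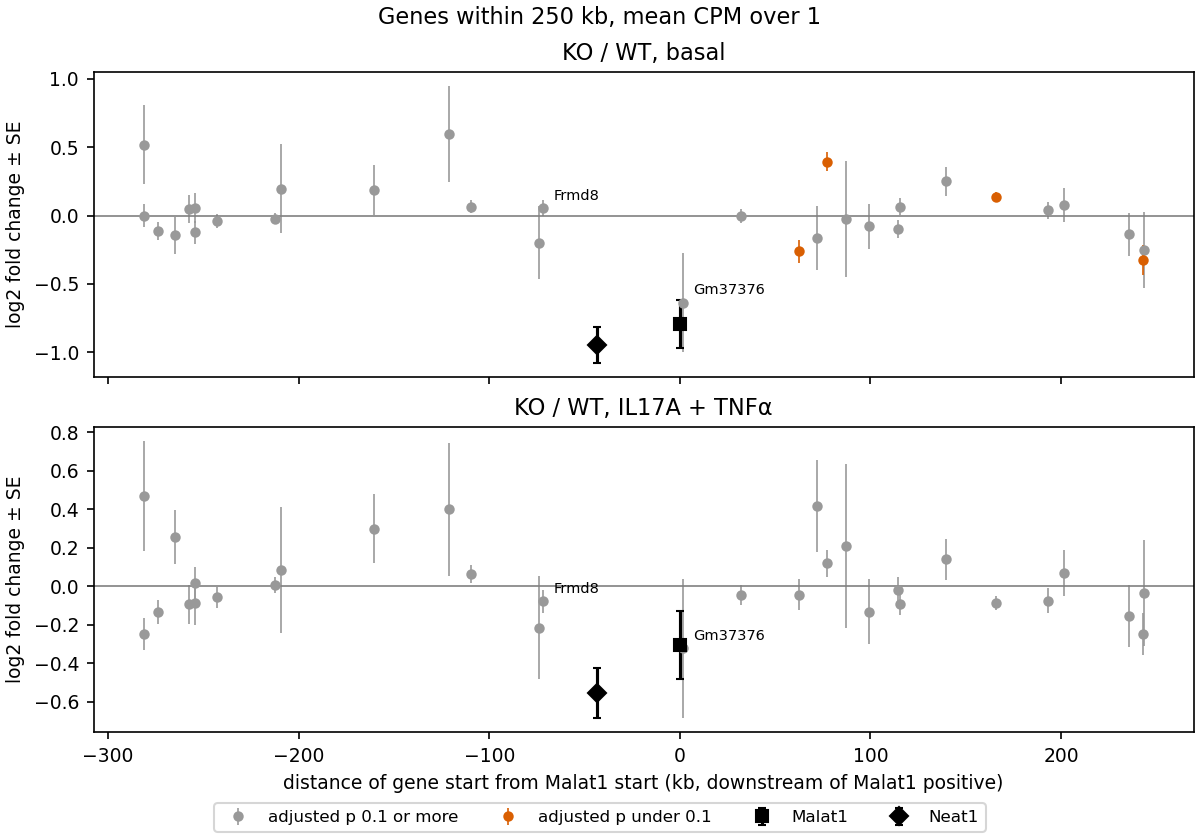
Log2 fold change of KO against WT ± SE (y axes) for genes within 250 kb and over 1 CPM, by the distance of their start from that of *Malat1* (x axis, kb), under basal conditions and with cytokines. *Malat1* and *Neat1* are black, and *Frmd8* lies at 0.05 in basal cells.

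Markers of the cell types in the cultures are given beside these results, with the gene of the highest mean over the 26 libraries named for each type. The 6 markers of basal keratinocytes summed to 42775 ± 2094 CPM in WT basal and 42558 ± 2016 CPM in KO basal libraries, led by *Krt5*, and 2 of the 6 were higher in KO basal cells beside 7.57% of all genes, 0 without WT replicate 2 or WT replicate 4. The 8 suprabasal markers, led by *Sbsn*, summed to 4853 ± 1057 CPM in WT basal and 3419 ± 966 CPM in KO basal libraries, and with cytokines to 1192 ± 239 and 820 ± 165 CPM. Under basal conditions 2 of the 8 (25%) were lower in KO, beside 6.06% of all genes, namely *Dsg1a* (-0.82, SE 0.18, adjusted p = 0.00362) and *Krt1* (-0.75, SE 0.18, adjusted p = 0.00776), and with cytokines 5 (62.5%) were lower, beside 1.62% of all genes. Without KO replicate 8, 6 were lower under basal conditions and 7 with cytokines. With cytokines 7 were also lower without WT replicate 1, and 2 without WT replicate 3. Under basal conditions the means of the suprabasal sum, *Malat1* and *Neat1* were all lower in KO. With cytokines *Malat1* did not pass the test between genotypes (adjusted p = 0.430, edgeR). Treatment changed them differently in KO, where the mean sum went from 3419 to 820 CPM. *Malat1* had means of 1971 and 1942 CPM there, and *Neat1* of 357 and 435 CPM. All these means fell in WT, with *Malat1* at 3411 and 2399.7 CPM and *Neat1* at 688 and 638 CPM. The part of the suprabasal markers in the result was not tested. Cytokines lowered all 8 suprabasal markers in both genotypes, beside 18% of all genes in WT and 18.1% in KO.

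Melanocyte markers, 8 genes led by *Tyrp1*, summed to 573 ± 75.8 CPM in WT basal and 578 ± 58.5 CPM in KO basal libraries, and to 457 ± 61.7 and 363 ± 32.7 CPM with cytokines, where 4 of 8 (50%) were lower in KO beside 1.62% of all genes, 6 without WT replicate 1 and 2 without WT replicate 5. Their part in the difference of *Neat1* with cytokines was not tested. Fibroblast markers (8 genes, led by *Pdgfra*) summed to 7.93 ± 1.52 CPM in WT basal and 5.44 ± 1.47 CPM in KO basal libraries. Of 7 tested fibroblast markers 1 was lower in KO basal cells, beside 6.06% of all genes, and 0 when WT replicate 2 or WT replicate 5 was left out, and likewise for KO replicate 4, KO replicate 5 and KO replicate 7. Immune markers (10 genes, led by *Lyz2*) summed to 7.37 ± 3.19 and 11.7 ± 5.14 CPM, with *Cd3g* and *Cd207* at 0 in all libraries. Endothelial markers (6 genes, led by *Pecam1*) summed to 2.62 ± 0.580 and 3.44 ± 1.07 CPM, with *Emcn* at 0 in all libraries. *Pecam1* was the 1 of 3 tested that was higher in KO basal cells (0.95, SE 0.26, adjusted p = 0.0195), beside 7.57% of all genes, and lost its call in the fit of only the 2 groups compared (adjusted p = 0.111). With cytokines these 3 sums were at most 17.8 CPM in any library.

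As a check of the treatment labels, 16 of 16 genes known to respond to IL17A or TNF rose in both genotypes. The shares of all genes that rose were 18.8% in WT and 17.7% in KO. *Lcn2* rose by log2 fold changes of 5.97 (SE 0.26) in WT and 5.61 (SE 0.20) in KO. The genotypes differed in this list too. In KO basal cells 5 of the 16 (31.3%) were higher, beside 7.57% of all genes and 8 without WT replicate 1, among them *Cxcl1* (6.13 ± 1.85 and 12.8 ± 2.02 CPM, 1.07, SE 0.15, adjusted p = 1.54e-05) and *Tnfaip3* (32.8 ± 1.78 and 49.0 ± 4.62 CPM, 0.58, SE 0.07, adjusted p = 2.31e-06). By edgeR, DESeq2 and limma 0 were lower (1 at an unadjusted p under 0.05), and 2 were lower by edgeR without WT replicate 1 and 1 without KO replicate 8.

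With cytokines 1 of the 16 was lower in KO, beside 1.62% of all genes, namely *S100a9* (2118 ± 464 and 1518 ± 394 CPM, -0.48, SE 0.14, adjusted p = 0.0867). Its call was lost in 12 of 24 alternatives (adjusted p up to 0.241). The number lower was 6 without WT replicate 1, and 4 or 2 when KO replicate 8 or KO replicate 7 was left out. It was 0 without any 1 of the other mice, WT replicates 2 to 5 and KO replicates 1 to 6. By edgeR, DESeq2 and limma 0 were higher (2 at an unadjusted p under 0.05), and 1 was higher by edgeR without WT replicate 1 or KO replicate 8. The part of this difference in that of *Malat1* and *Neat1* was not tested.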

How the data were processed

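Bulk RNA sequencing was available for 26 libraries of 13 mice. The authors aligned reads to mm39 with STAR 2.7.10b and counted them per gene with featureCounts 2.0.6, per the labels, and deposited raw counts. The deposited log2 normalized counts of the authors were used for an alternative only. Here, genes with a mean normalized count over 10 (DESeq2 size factors) were tested on the counts with edgeR 4.0.16 in R 4.3.3 (TMM, quasi-likelihood, 4 groups in one fit, Benjamini-Hochberg over 16893 genes, call at an adjusted p under 0.1). CPM were computed with TMM factors, and a prior count of 1 was added for log2 CPM. The procedure was tested on simulated data. Total counts of 42072745 to 78102858 leave counting error small for both genes. No 2 libraries of a group agreed within sampling noise (lowest chi-square per degree of freedom 7.22).

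The members and gene lists were chosen with earlier results of these data known. Named genes were, in each list and comparison, up to 2 called genes with the largest rise and up to 2 with the largest fall (mean normalized count over 100), the most abundant gene of each list (mean over 26 libraries), *Sfpq*, *Nono*, *Pspc1*, *Mettl16* and *Elac2*, called or adjacent genes within 250 kb, and the 5 genes most like each member (r of log2 CPM, mean normalized count over 100). A part of them is described in the text. GENCODE on GRCm39 gave positions and lengths for 52624 of 56738 symbols. A basal and a treated library share a replicate number within a genotype because they stem from the same mouse. Their correlation by mouse, after the group means were subtracted, was 0.000509 to 0.254 (median 0.106). WT and KO mice share only numbers. Alternatives were DESeq2 size factors, upper quartile and no scaling, DESeq2 1.42.0, limma 3.58.1 on the log2 values, filterByExpr or no filter, a fit of just the 2 groups compared, a sex score as covariate, a block for the mouse, a fold over 1.5, an adjusted p under 0.05, each mouse left out, the longest transcript as length, Spearman's rho and a window of 1 Mb. The block was a correlation within mice in limma-voom for the genotype comparisons. For the cytokine comparisons and the interaction it was a term for each mouse in edgeR.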

Additional observations from a re-analysis of the deposited data

Results flagged for a closer look

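Some single libraries or mice lay far from the others of their group, by the gap to the nearest value relative to the range of the group, a criterion that chance meets in about 1 in 20 groups. The log2 ratio of *Malat1* with cytokines to basal was -1.03 in WT replicate 5, against -0.41 to -0.27 in the other WT mice. *Pla2g4d* reached 59.2 CPM in the cytokine library of KO replicate 8, the highest of the KO mice. WT replicate 1 with cytokines had the lowest summed level of melanocyte markers (351 CPM) and of suprabasal keratinocyte markers (769 CPM) among WT libraries with cytokines, and it was also the lowest of them for *Malat1* and *Neat1*. WT replicate 2 with cytokines had the highest summed level of fibroblast markers (7.68 CPM).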

How the results depend on the processing

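Over 24 alternatives, the log2 fold change of *Neat1* in KO against WT with cytokines kept its direction, with adjusted p from 0.000878 to 0.156. It ranged from -0.67 to -0.48 with each mouse left out, and the call was lost without WT replicate 3 (-0.48) and without WT replicate 4 (-0.52). With the mouse as a replicate block it was -0.52 (adjusted p = 0.0399, limma-voom). Its fold of 0.682 would not be called with a fold over 1.5. That of *Malat1* ranged from -0.41 to -0.24 with each mouse left out and passed in no alternative (adjusted p from 0.126 to 0.673), with -0.30 in the fit with the mouse as a block. The descriptions of both genes in the other comparisons moved by less than the spread between mice in 190 of 190 cases, although the value of *Malat1* for the cytokines in KO cells, near 0, kept its sign in 19 of 24.

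The 479 genes called between genotypes with cytokines became 800 with DESeq2, 866 with only the 2 groups compared, 119 with a fold over 1.5, 173 at an adjusted p under 0.05, and 111 (without WT replicate 3) to 2061 (without WT replicate 1) with each mouse left out. With a fold over 1.5, the 2303 genes of the basal genotype comparison became 453, the 6221 of cytokines in WT 2349 and the 6048 in KO 1837. With each mouse left out these 3 counts lay between 1661 and 3250, 5121 and 6509, and 5434 and 6271. The block moved no count by over 1.5 times. It gave 2502 and 537 genes between genotypes (limma-voom), and 6905 and 6637 for cytokines in WT and KO (edgeR). The causes were not tested. The fit of 2 groups gives no interaction, so that alternative was not run for it.

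Of 14 named genes called between genotypes with cytokines, 3 were called in all 24 alternatives run for single genes. The other 11 were lost without WT replicate 3. These 24 leave out the fold limit and the stricter adjusted p. With the fold limit *Krt1* (log2 fold change -1.42) would keep its call, while *Pmel* (-0.57) and *Dct* (-0.47) would not. For the basal comparison 19 of 32 were called in all 24, again without the fold limit and the stricter adjusted p. Some of the 19 would be lost with the fold limit. Library totals without the 50 most abundant genes and without *Malat1* and *Neat1*, an alternative added after seeing the data, gave -0.54 for *Neat1* (adjusted p = 0.0341). Within 1 Mb in place of 250 kb, 5 of 95 tested genes were higher and 6 lower in KO basal cells (7.57% and 6.06% of all genes), and 0 higher and 2 lower with cytokines (1.22% and 1.62%).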
